A study of Mus musculus with 32 samples.

Results

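The 10 genes used as markers of resident Kupffer cells, the macrophages that live in the liver sinusoids, were read across whole-liver RNA-seq libraries of FAAH S268D and wild-type mice. They were chosen by symbol: C1qa, C1qb, C1qc, Cd5l, Clec1b, Clec4f, Vsig4, Timd4, Marco and Cd163. All 10 were among the 55487 genes of the deposited table, and all 10 were among the 14903 genes that passed the filter on low counts. Mice were fed for 28 weeks, per the design text, with an HFFC diet that either contained ARA or did not. The labels name these diets NASH-AA and NASH. The 4 groups of 8 libraries were FAAH S268D on NASH-AA, FAAH S268D on NASH, wild type (WT) on NASH-AA and WT on NASH. FAAH (fatty acid amide hydrolase) degrades anandamide and related lipid amides, and S268D is an amino acid substitution in it that both FAAH S268D groups carry. The mice of all 4 groups received a diet named for NASH, so none of the groups stands for an untreated liver. The labels give no age, sex, strain background or number of animals. They also do not tie replicates to separate animals. The p-values therefore describe the spread among these libraries, which may be technical.

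Kupffer cells take up bacteria, aged red cells and cell debris from portal blood, and in mice they are seeded before birth and renew themselves in place. In mouse models of steatohepatitis some of these cells are lost and monocytes that enter the liver take up parts of the same program, gaining Clec4f early and Timd4 late. The markers cover several functions. C1qa, C1qb and C1qc encode the chains of C1q, the recognition protein of the classical complement pathway, and macrophages in general make them. Cd5l encodes a secreted protein of the scavenger receptor cysteine-rich family that promotes macrophage survival. Clec1b encodes CLEC-2, a lectin that binds podoplanin and that platelets also carry. Clec4f encodes a lectin that in mice is close to exclusive to Kupffer cells, and Vsig4 encodes a complement receptor for C3 fragments. Timd4 encodes a receptor for phosphatidylserine on dying cells, Marco a class A scavenger receptor for bacteria and particles, and Cd163 the receptor for haemoglobin bound to haptoglobin.

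Libraries held 3851626 to 34370179 counts (median 22896702). The shallowest library was FAAH S268D NASH replicate 1, and the next lowest held 14743252 counts. Levels are TMM-scaled CPM, that is, normalised counts relative to library size. Hepatocyte markers summed to between 53370 and 106300 CPM in every library, with Alb at 61.9% of that sum, so the labelled tissue carries its defining genes. The 10 Kupffer cell markers summed to between 315.1 and 1175 CPM. Of their 320 values, 286 were whole numbers in the deposited table, 34 had decimals and 0 had been altered in a way that left 2 possible originals. In bulk liver, fewer cells of a type and less RNA per cell cannot be told apart, and this holds for every value below.

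The markers shared no chromosome as a set, but C1qb, C1qc and C1qa sat side by side on chromosome 4, the chromosome of Faah. On GRCm38 they occupy 136880129 to 136886187, 136889804 to 136893065 and 136895917 to 136898803, all on the minus strand and each with 3 exon blocks, 20.9 Mb from Faah (115967145 to 116017926). Clec4f, Clec1b and Cd163 lie on chromosome 6, Vsig4 on X, Timd4 on 11, Marco on 1 and Cd5l on 3. Clec1b overlaps Clec9a on the same strand over 184 exonic bases, 3.61% of its 5103. Of its 32 values 28 carried decimals, Cd163, with no overlapping gene, had decimals in 6 of 32, and the other 8 markers had 0.

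Promoters of 9 of the 10 markers were in a RefSeq table for GRCm38.p6. The 250 bases before the RefSeq start of each were searched on both strands for 5 short motifs of factors that act in Kupffer cells. GAGGAA, the core of sites for the myeloid factor PU.1, was in 5 of the 9 (Vsig4, Marco, Cd5l, C1qb and C1qc), against 23.1% of 27025 promoters. TGCTGAC, a MAF half-site, was in 1 of 9 (Timd4), against 3.72%. TGGGAA, the RBPJ core, was in 2 of 9 (Clec4f and Marco), against 21.5%. TGANTCA, the AP-1 site, was in 0 of 9, against 6.87%, and a repeat of AGGTCA spaced by 4 bases, bound by LXR, in 0 of 9, against 0.0111%. The GENCODE positions above put the start of C1qc and Clec4f further out, so that 151 and 71 of the 250 bases lie inside those genes there. No match overlapped another, and a match or its absence in this window is a description of letters. The sequences below are the promoters of markers that are described together further on: C1qb and Cd5l, whose levels moved in step, and Marco and Timd4, which together with Cd163 spread most. They are written 5′ to 3′ on the strand of the gene, and capitals mark GAGGAA or TGCTGAC, or the reverse complement of either. They lie at chr4:136886201-136886450 (C1qb, minus strand), chr3:87357631-87357880 (Cd5l, plus strand), chr1:120505025-120505274 (Marco, minus strand) and chr11:46810549-46810798 (Timd4, plus strand).
C1qb: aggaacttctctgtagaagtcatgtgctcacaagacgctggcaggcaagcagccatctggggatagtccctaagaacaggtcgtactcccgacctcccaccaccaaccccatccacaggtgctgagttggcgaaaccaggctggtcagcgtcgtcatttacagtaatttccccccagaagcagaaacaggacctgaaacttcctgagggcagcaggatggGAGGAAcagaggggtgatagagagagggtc
Cd5l: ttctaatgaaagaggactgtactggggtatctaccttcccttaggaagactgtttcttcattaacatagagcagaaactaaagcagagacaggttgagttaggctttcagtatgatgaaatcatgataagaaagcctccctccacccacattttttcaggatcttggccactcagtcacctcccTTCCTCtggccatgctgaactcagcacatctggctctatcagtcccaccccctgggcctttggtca
Marco: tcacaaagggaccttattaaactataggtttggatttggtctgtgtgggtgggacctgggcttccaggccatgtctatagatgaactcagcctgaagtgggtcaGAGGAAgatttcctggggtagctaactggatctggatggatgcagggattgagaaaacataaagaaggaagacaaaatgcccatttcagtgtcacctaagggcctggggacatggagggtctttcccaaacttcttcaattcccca
Timd4: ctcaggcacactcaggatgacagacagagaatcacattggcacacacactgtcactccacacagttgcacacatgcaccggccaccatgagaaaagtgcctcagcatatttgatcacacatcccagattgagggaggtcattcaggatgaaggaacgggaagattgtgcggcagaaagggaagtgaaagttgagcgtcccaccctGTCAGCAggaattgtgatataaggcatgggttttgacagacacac
The capitals in C1qb lie 30 to 25 bases before the start, in Cd5l 66 to 61 and in Marco 146 to 141, so the match had no common position. In Timd4 the MAF half-site lies 45 to 39 bases before the start, on the minus strand of the gene.

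Levels were compared between genes per exonic kilobase (CPM per kb). Cd5l was the most abundant marker, with a median over 32 libraries of 96.1 CPM per kb, followed by C1qb at 67.8, C1qa at 65.2, C1qc at 39.96, Clec4f at 37.7 and Vsig4 at 16.4. The low end held Marco at 3.82, Clec1b at 2.27, Timd4 at 1.88 and Cd163 at 0.951 CPM per kb. C1qb stood at between 90.8 and 127 per 100 of C1qa on this scale, so the order of this pair was not the same in every library. C1qc was below C1qa in all 32, with group medians of 61.2 to 65.4 per 100 of C1qa. Per 100 of Clec4f, Cd5l stood at 160 to 625 and C1qa at 114 to 341, above it in every library, and Vsig4 at 25.7 to 74.2, below it in every library. Marco crossed Clec4f, at 0.489 per 100 in WT NASH replicate 4 and 133 in FAAH S268D NASH replicate 2.

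Each C1q chain had its lowest median in FAAH S268D NASH-AA and its highest in WT NASH. C1qa had lowest, median and highest levels of 37.7, 52.4 and 63.9 CPM in FAAH S268D NASH-AA, 39.5, 61.8 and 86.3 in FAAH S268D NASH, 64.95, 68.3 and 97.8 in WT NASH-AA, and 58.9, 99.3 and 155 in WT NASH. The 8 FAAH S268D libraries on NASH-AA all lay below the 8 WT libraries on that diet, while on NASH the genotypes overlapped and WT NASH replicate 5 was the lowest of its group. C1qb had 39.8, 59.5 and 70.4 CPM in FAAH S268D NASH-AA, 45.6, 67.1 and 97.9 in FAAH S268D NASH, 69.4, 78.4 and 114 in WT NASH-AA, and 56.0, 118 and 176 in WT NASH. C1qc had 40.5, 63.7 and 75.7 CPM in FAAH S268D NASH-AA, 49.9, 70.5 and 90.7 in FAAH S268D NASH, 69.7, 83.1 and 111 in WT NASH-AA, and 58.7, 119 and 172 in WT NASH. For C1qb and C1qc the genotypes overlapped on both diets, and WT NASH replicate 7 was the highest of all 32 libraries for each of the 3 chains.

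Cd5l and Clec1b also had their highest median in WT NASH. Cd5l had 102, 182 and 208 CPM in FAAH S268D NASH-AA, 113, 186 and 199.7 in FAAH S268D NASH, 184, 222 and 275 in WT NASH-AA, and 132, 323 and 445 in WT NASH. All FAAH S268D libraries on NASH were below 7 of the 8 WT libraries on that diet, and WT NASH replicate 5, at 132 CPM, was the exception. Clec1b had 7.35, 10.3 and 11.9 CPM in FAAH S268D NASH-AA, 7.97, 9.46 and 14.9 in FAAH S268D NASH, 10.2, 12.2 and 14.4 in WT NASH-AA, and 7.99, 17.4 and 20.9 in WT NASH. Its highest FAAH S268D value on NASH came from replicate 1, the shallowest library, where it rests on 54 counts.

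Clec4f and Vsig4 overlapped between the groups of each comparison. Clec4f had 59.7, 85.6 and 122 CPM in FAAH S268D NASH-AA, 55.3, 77.9 and 140.4 in FAAH S268D NASH, 77.4, 102 and 118 in WT NASH-AA, and 57.8, 118 and 147 in WT NASH. Vsig4 had 15.3, 22.99 and 29.3 CPM in FAAH S268D NASH-AA, 17.5, 19.8 and 32.4 in FAAH S268D NASH, 19.1, 27.8 and 35.9 in WT NASH-AA, and 10.8, 39.7 and 62.2 in WT NASH. The WT NASH libraries held both the lowest and the highest Vsig4 value of all 32, in replicate 4 and in replicate 2.

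Timd4, Marco and Cd163 spread far more between libraries of 1 group than the other markers did. Timd4 had 2.21, 3.40 and 6.44 CPM in FAAH S268D NASH-AA, 1.72, 3.52 and 19.3 in FAAH S268D NASH, 2.58, 4.41 and 7.24 in WT NASH-AA, and 0.759, 5.31 and 11.3 in WT NASH. Marco had 2.91, 7.15 and 11.3 CPM in FAAH S268D NASH-AA, 1.09, 2.62 and 76.7 in FAAH S268D NASH, 5.92, 14.8 and 31.8 in WT NASH-AA, and 0.266, 7.81 and 67.1 in WT NASH. Cd163 had 0.625, 4.44 and 12.6 CPM in FAAH S268D NASH-AA, 0.532, 4.33 and 14.3 in FAAH S268D NASH, 2.18, 7.72 and 12.8 in WT NASH-AA, and 0.152, 2.62 and 9.20 in WT NASH. WT NASH replicate 4 was the lowest of all 32 libraries for each of these 3 genes, with 20 counts of Timd4, 7 of Marco and 4 of Cd163 in 22273826. FAAH S268D NASH replicate 2 was the highest of all for Timd4 and Marco.

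**Figure D1:**
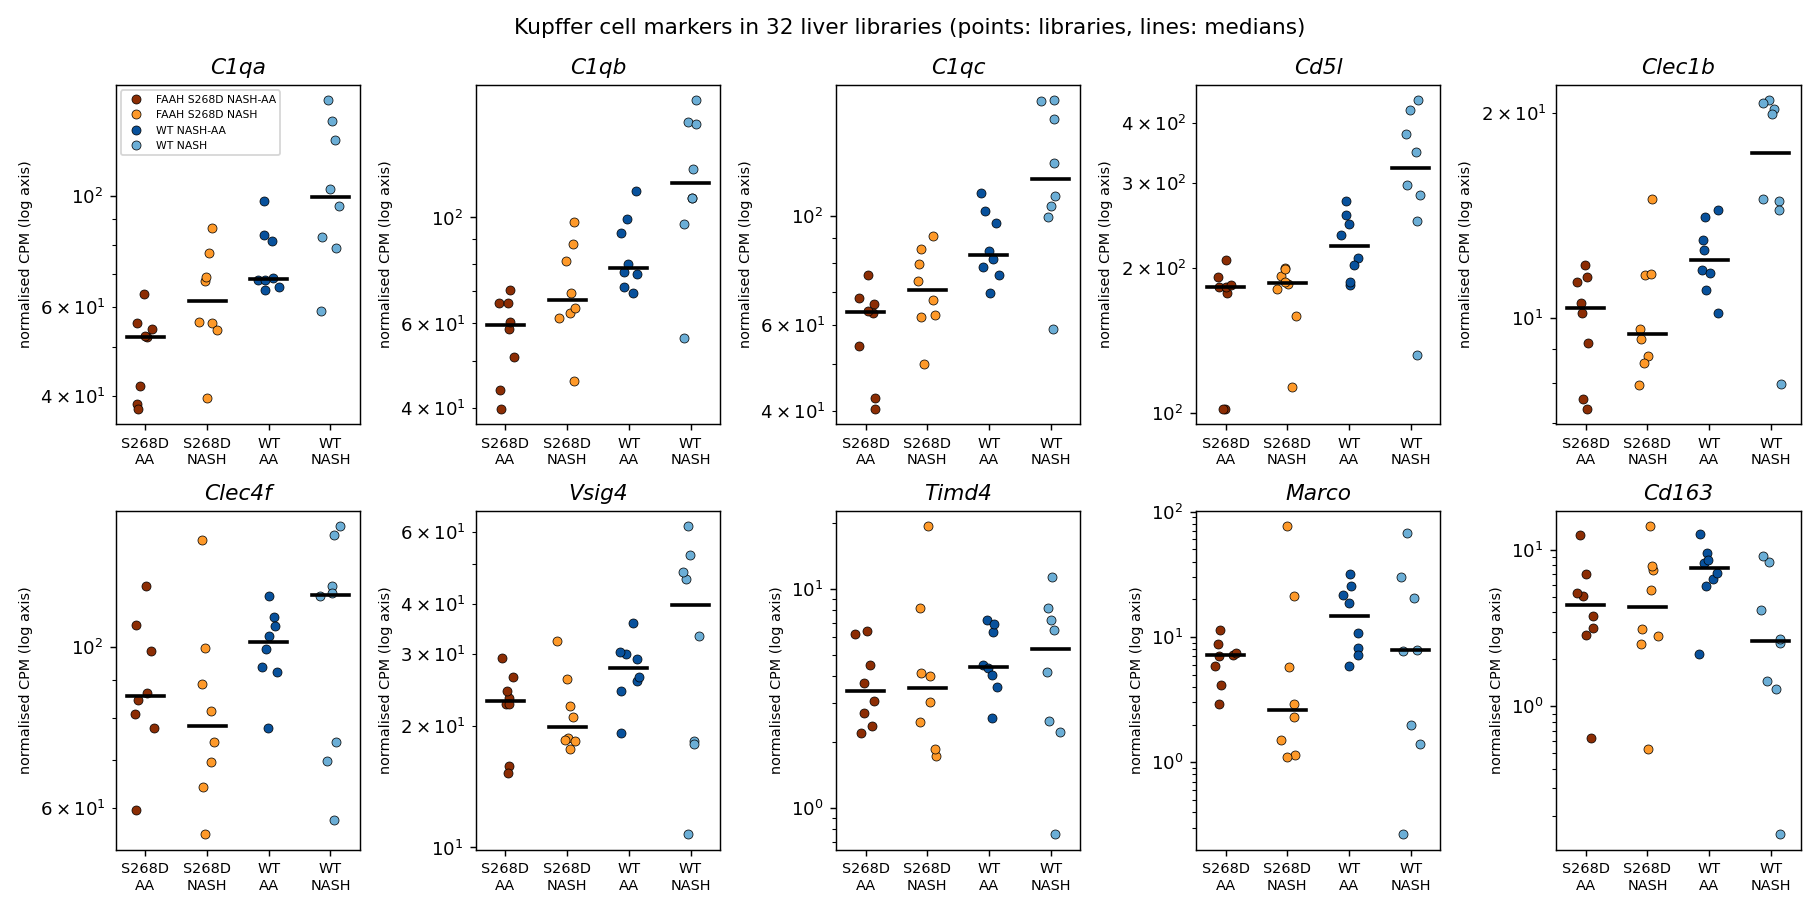
Normalised CPM (log axis) of each of the 10 markers in 32 liver libraries, 1 point per library and a line at each group's median, with FAAH S268D groups left of WT groups and NASH-AA left of NASH. The C1q chains, Cd5l and Clec1b have their highest medians in WT NASH, while Marco runs from 0.266 to 76.7 CPM.

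On the NASH diet, 5 of the 10 markers fell in FAAH S268D libraries relative to WT libraries and 0 rose, against 9.18% of all genes tested that passed in either direction, 6.29% as lower and 2.89% as higher (limma-voom, adjusted p under 0.05 over 14903 genes). They were the 3 C1q chains, Cd5l and Clec1b. C1qa had a log2 fold change of -0.74 ± 0.16 (SE, adjusted p = 0.00678), C1qb of -0.77 ± 0.18 (adjusted p = 0.00746) and C1qc of -0.77 ± 0.17 (adjusted p = 0.00675). Cd5l fell by 0.79 ± 0.19 (adjusted p = 0.00847) and Clec1b by 0.72 ± 0.15 (adjusted p = 0.0054). For each of these 5 genes all 8 FAAH S268D libraries were below the median of WT libraries, as was also the case for Vsig4. Levels of the 5 genes in FAAH S268D stood at between 0.578 and 0.607 of those in WT. The other 5 markers did not pass. Vsig4 had a log2 fold change of -0.54 ± 0.26 (adjusted p = 0.186) and Clec4f of -0.32 ± 0.18 (adjusted p = 0.262), with 95% intervals of -1.07 to -0.01 and -0.69 to 0.05. Timd4 had -0.07 ± 0.46, Marco -0.57 ± 0.91 and Cd163 0.74 ± 0.67, and the intervals of these 3 span from -0.998 to 0.867, from -2.41 to 1.28 and from -0.63 to 2.10. The median over the 10 markers was -0.65, against 0.00043 over all genes.

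The 5 calls depended on which libraries were fitted. Among the library names numbered 1 to 16 the 5 genes had log2 fold changes of -0.75 to -0.91 and passed, as did 883 of all genes. Among those numbered 17 to 32 they had -0.60 to -0.71 and did not pass (adjusted p = 0.608 to 0.611), where 20 of all genes did. Fitted on the 16 NASH libraries alone, they kept log2 fold changes of -0.72 to -0.79 and did not pass (adjusted p = 0.0753 to 0.0792), where 73 of all genes did. Without WT NASH replicate 4, Vsig4 passed as well, at -0.75 (adjusted p = 0.0379), with 937 of all genes.

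**Figure D2:**
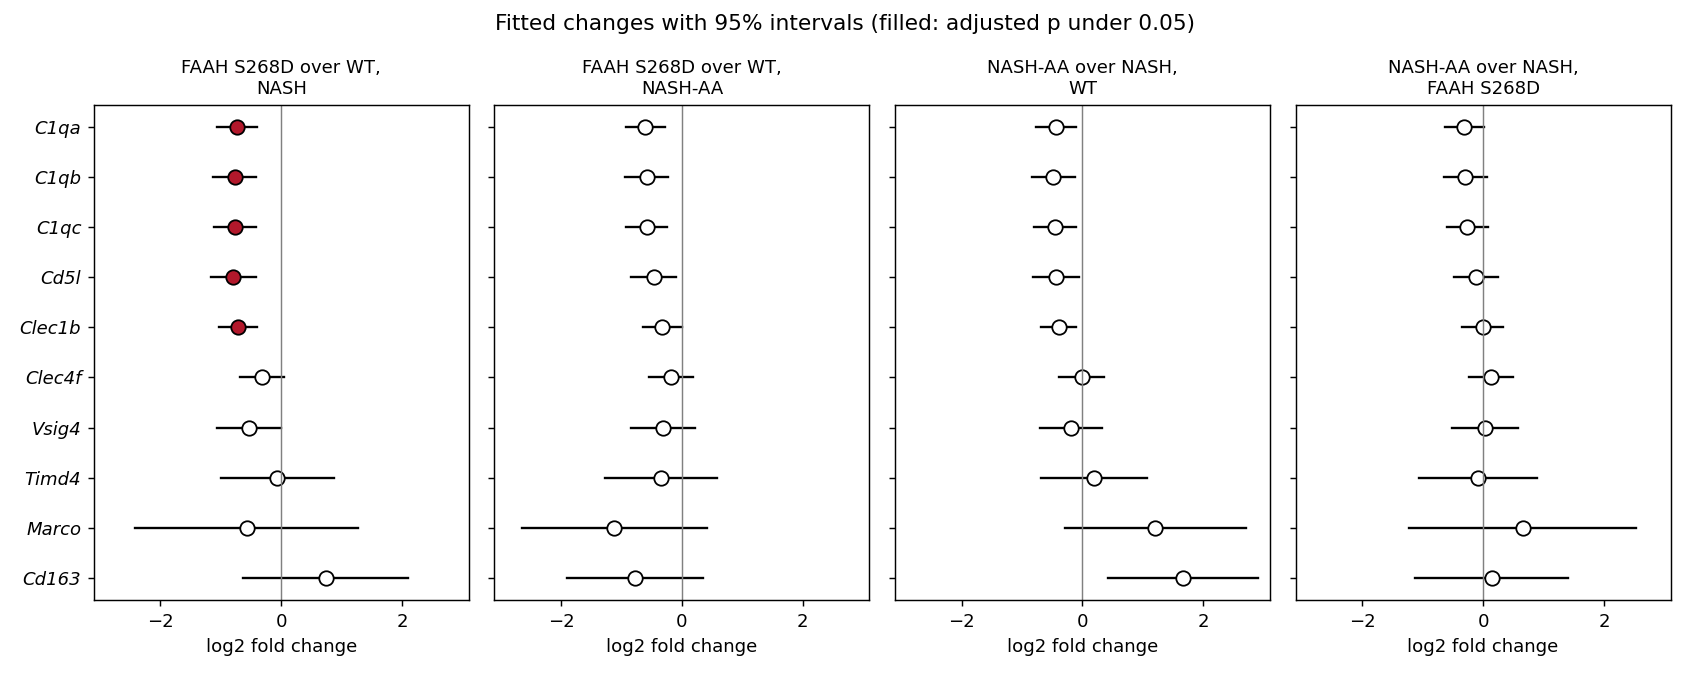
Log2 fold changes of the 10 markers with 95% intervals in the 4 comparisons of 2 groups, FAAH S268D over WT on each diet and NASH-AA over NASH in each genotype, with filled points for adjusted p under 0.05. The 5 filled points are C1qa, C1qb, C1qc, Cd5l and Clec1b on NASH, and Marco and Cd163 have the widest intervals.

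On the NASH-AA diet, 0 of the 10 markers passed between FAAH S268D and WT libraries, against 0.658% of all genes tested. All 10 had negative log2 fold changes, with a median of -0.52 against 0.0024 over all genes, and 5 had an unadjusted p under 0.05 in limma-voom, beside 2317 of all genes. C1qa had -0.60 ± 0.16 (adjusted p = 0.0724), C1qb -0.58 ± 0.17 (adjusted p = 0.112) and C1qc -0.58 ± 0.17 (adjusted p = 0.104). C1qa was the 1 marker whose groups did not overlap, as was the case for 0.624% of all genes on this diet. Cd5l had -0.46 ± 0.18 (adjusted p = 0.219) and Clec1b -0.33 ± 0.16 (adjusted p = 0.315). Marco had -1.12 ± 0.75 and Cd163 -0.78 ± 0.55 (adjusted p = 0.496 and 0.52), and Clec4f, Vsig4 and Timd4 lay between -0.18 and -0.34. The C1q chains passed in the fit of the 16 NASH-AA libraries alone (adjusted p = 0.00943 for C1qa, 0.0189 for C1qb and 0.0221 for C1qc), with sample quality weights (adjusted p = 0.0114 to 0.019) and without WT NASH replicate 5 (adjusted p = 0.0313 to 0.0372). In these 3 settings 614, 756 and 188 of all genes passed, against 98 in the fit of all libraries. C1qa also passed without FAAH S268D NASH-AA replicate 6 (adjusted p = 0.0474, with 107 of all genes).

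In WT libraries, 0 of the 10 markers passed between the NASH-AA and NASH diets, against 4.41% of all genes tested. 6 markers had an unadjusted p under 0.05 in limma-voom, beside 3636 of all genes, and they pointed in both directions. C1qa had -0.44 ± 0.16, C1qb -0.48 ± 0.18, C1qc -0.45 ± 0.17, Cd5l -0.44 ± 0.19 and Clec1b -0.40 ± 0.15 (adjusted p between 0.0896 and 0.146). Cd163 had 1.66 ± 0.61 (adjusted p = 0.0929), a fitted ratio of 3.16, with 7 of 8 NASH-AA libraries above the median of NASH libraries. Marco had 1.20 ± 0.73 (adjusted p = 0.314), Timd4 0.19 ± 0.43, Clec4f -0.02 ± 0.18 and Vsig4 -0.19 ± 0.25, each with an interval that spans 0. The WT NASH group was the more spread of the 2 for every marker. Without WT NASH replicate 5, the 5 negative genes passed (adjusted p = 0.00246 to 0.0137), as did 2191 of all genes against 657 with that library. Without WT NASH replicate 4 Cd163 had 1.1. With sample quality weights 6 markers passed, these 5 and Cd163 (2.04, adjusted p = 0.0075), where 3759 of all genes passed. Among library numbers 17 to 32 alone Cd163 passed, with 164 of all genes.

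In FAAH S268D libraries, 0 of the 10 markers passed between the NASH-AA and NASH diets, against 0.0939% of all genes tested, and 0 had an unadjusted p under 0.05 in limma-voom, beside 1843 of all genes. C1qa had -0.31 ± 0.16, C1qb -0.29 ± 0.17 and C1qc -0.26 ± 0.17 (adjusted p = 0.437 to 0.549). Clec1b had -0.004 ± 0.17 and Cd5l -0.11 ± 0.18. Timd4, Marco and Cd163 had -0.09 ± 0.48, 0.66 ± 0.92 and 0.14 ± 0.62. The interaction of genotype and diet was called for 0 markers and for 0% of all genes, and 0 markers had an unadjusted p under 0.05, beside 627 of all genes. The interaction estimate farthest from 0 was that of Cd163, at -1.52 ± 0.87 (adjusted p = 0.906). For C1qa it was 0.13 ± 0.23, with an interval of -0.33 to 0.60. The comparisons share groups with each other, so they are not independent readings.

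The markers did not vary as 1 block across libraries. The 3 sets described here were formed after the values were seen, and the correlations are between log2 CPM after each group's mean was taken away, over 32 libraries that share depth and tissue composition. All 45 pairs of markers were computed, with permutation p-values (two-sided, 100000 permutations within groups) adjusted over the 45. The C1q chains, Cd5l and Clec1b moved in step, with Pearson r of 0.813 to 0.98 and Spearman rho of 0.77 to 0.962 over their 10 pairs (adjusted p = 3.75e-05 to 6.92e-05 for r and 3.21e-05 for rho). Timd4, Marco and Cd163 moved with each other, with r of 0.707 to 0.928 and rho of 0.692 to 0.895 (adjusted p = 3.75e-05 to 0.000321 for r and 3.21e-05 to 0.000425 for rho). Between those sets the 15 pairs had r of -0.169 to 0.189 and rho of -0.222 to 0.187 (adjusted p = 0.61 to 0.93 for r and 0.384 to 1.0 for rho). Clec4f and Vsig4 had r of 0.831 and rho of 0.852 with each other (adjusted p = 3.75e-05 for r and 3.21e-05 for rho). To the C1q set they had r of 0.503 to 0.712 and rho of 0.569 to 0.795 (adjusted p = 0.000366 to 0.0235 for r and 3.21e-05 to 0.0036 for rho). To the Timd4 set they had r of 0.452 to 0.593 and rho of 0.312 to 0.565, not all of which passed (adjusted p = 0.0139 to 0.0602 for r and 0.0072 to 0.192 for rho). Without the 2 libraries farthest from the median, r was 0.667 to 0.968 in the C1q set, 0.632 to 0.875 in the Timd4 set and -0.272 to 0.142 between them. Among library numbers 1 to 16 these ranges were 0.492 to 0.977, 0.768 to 0.951 and -0.143 to 0.497, and among 17 to 32 they were 0.912 to 0.988, 0.693 to 0.844 and -0.334 to 0.0178 (n = 16 each). For Clec4f and Vsig4 to the C1q set r was 0.586 to 0.751 without the 2 libraries, 0.191 to 0.673 among numbers 1 to 16 and 0.63 to 0.917 among 17 to 32. To the Timd4 set these ranges were 0.248 to 0.47, 0.595 to 0.823 and 0.0693 to 0.517.

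**Figure D3:**
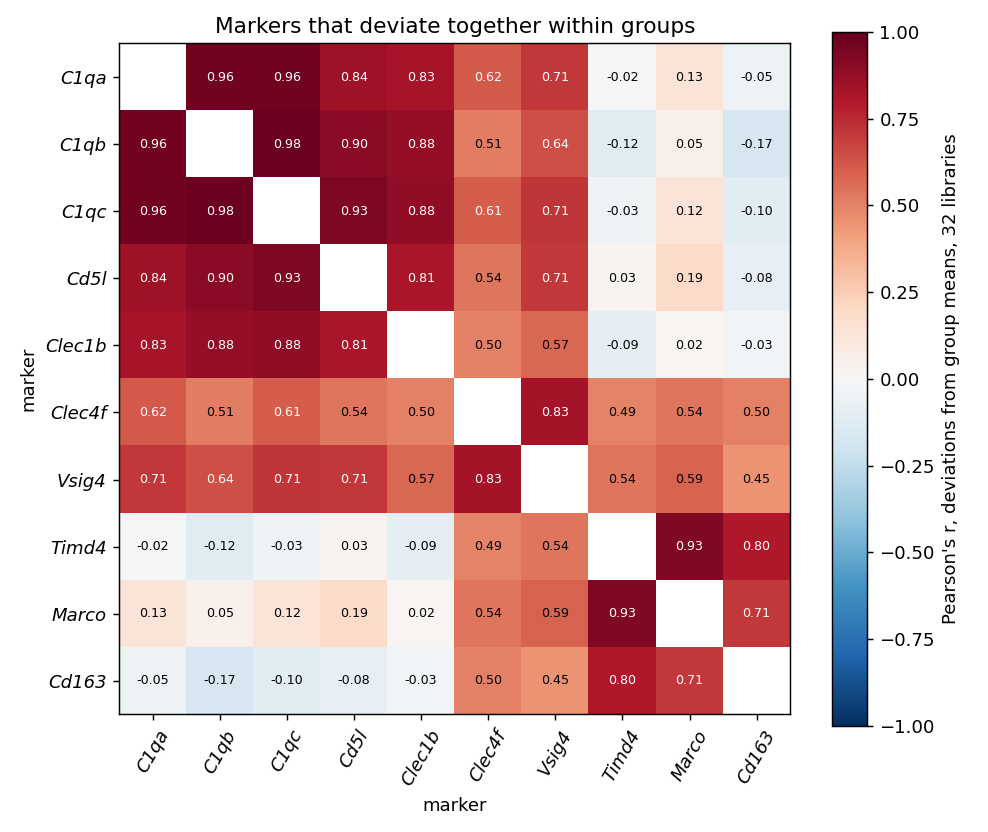
Pearson r between every pair of the 10 markers, from deviations of log2 CPM from group means over 32 libraries, with red for positive and blue for negative values. The C1q chains, Cd5l and Clec1b form 1 block of high values and Timd4, Marco and Cd163 another, with values near 0 between them.

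**Figure D4:**
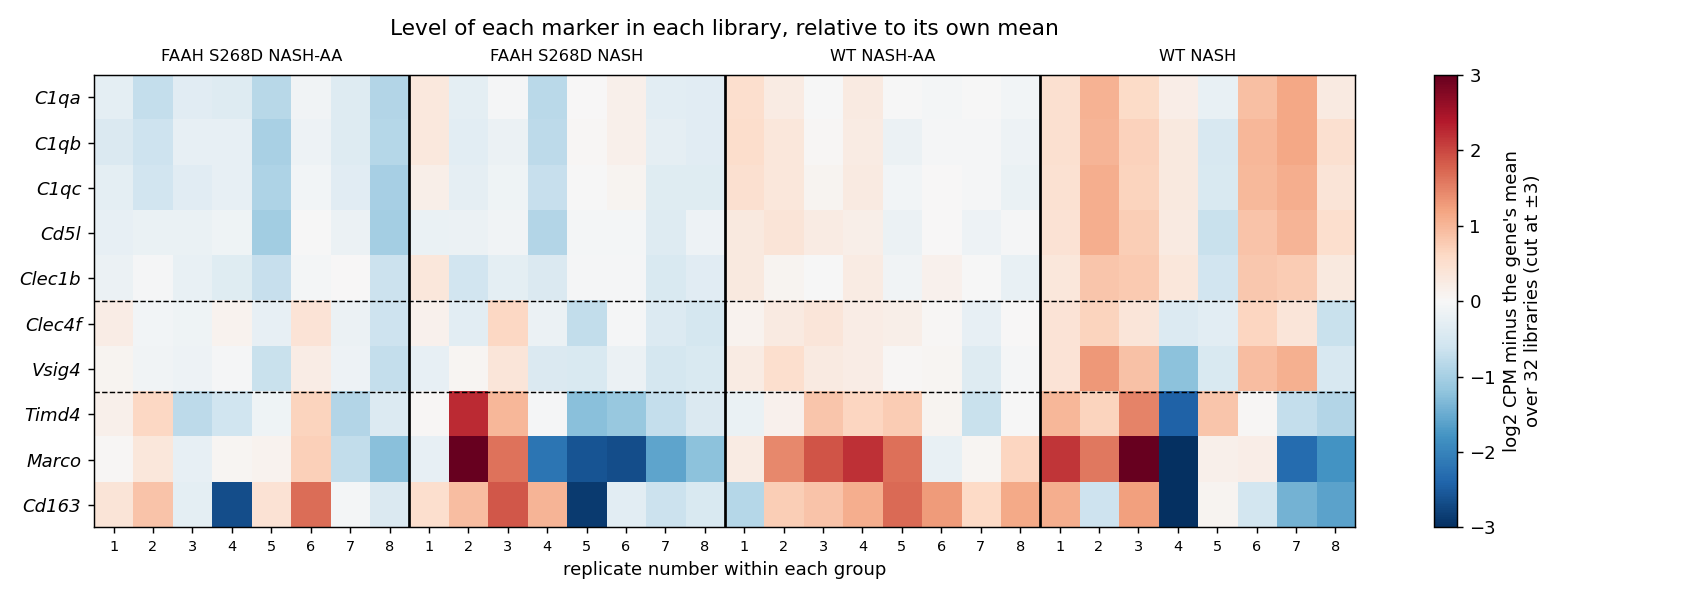
Log2 CPM of each marker in each library minus that marker's mean over 32 libraries, with colours ending at 3 either way, columns ordered by group and replicate number. In WT NASH replicate 4 Timd4, Marco and Cd163 are deep blue while the C1q chains, Cd5l and Clec1b are above their means.

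WT NASH replicate 4 shows the split within 1 library. It held 78.7 CPM of C1qa, 97.1 of C1qb, 99.3 of C1qc, 249.7 of Cd5l and 14.8 of Clec1b, all within the range of its group and above the mean of all libraries for each. This library was below its group's median for all of them, at 99.3, 118, 119, 323 and 17.4 CPM in the same order. Its Vsig4 was 10.8 CPM, the lowest of all, and its Clec4f 69.7 CPM. FAAH S268D NASH replicate 2 was the reverse in part. Its Marco at 76.7 CPM and Timd4 at 19.3 CPM were the highest of all, while its Cd163 at 7.49 CPM ranked 10 of 32. Its C1qa, C1qb and C1qc were at 56.0, 63.1 and 67.3 CPM, against group medians of 61.8, 67.1 and 70.5. Cd5l was at 185 CPM against a group median of 186, and Clec1b at 7.97 CPM was the lowest of its group. Lipid-associated macrophage genes summed to 93.8 CPM in FAAH S268D NASH replicate 2, the lowest of its group, and to 568 CPM in WT NASH replicate 4, against a group median of 539. Hepatocyte markers summed to 53370 CPM in WT NASH replicate 4, the lowest of all libraries, and their part in these values was not tested.

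Spread within groups was large for genes at these levels. The SD of log2 CPM within groups was 1.79 for Marco, 1.37 for Cd163 and 0.947 for Timd4, against a median of 0.245 over all genes. Among the 500 genes nearest in level, 99.8%, 99.8% and 98.4% had a smaller SD than Marco, Cd163 and Timd4 had. The other 7 markers had SDs of 0.321 to 0.527, above those of 84.4% to 97% of the genes nearest in level. Over the 32 libraries the highest value was 289-fold the lowest for Marco, 94-fold for Cd163 and 25.4-fold for Timd4. The lowest value of each came from WT NASH replicate 4, and without that library the folds were 70.3, 26.8 and 11.2. They compare with 2.66-fold for Clec4f and 4.12-fold to 4.42-fold for the C1q chains.

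For each marker the non-member genes with the highest Pearson r over 32 libraries were looked up as a description. Tyrobp, an adaptor of myeloid receptors, led for C1qa (0.974) and C1qb (0.984), and Cd300ld, a myeloid receptor, led for C1qc (0.98). Lgmn, a lysosomal protease, was closest to Cd5l (0.968), and Il18bp, the binding protein of interleukin-18, to Clec1b (0.95). Folr2, a folate receptor of resident macrophages, was closest to Clec4f (0.861) and Kcnj16, a potassium channel gene, to Vsig4 (0.85). Fcna, the ficolin of mouse macrophages, was closest to Cd163 (0.784) and Timd4 (0.695), and Siglece, an inhibitory receptor of myeloid cells, to Marco (0.721). The closest gene was tighter for the C1q set than for Timd4, Marco and Cd163, and with deviations from group means the leading genes were the same except for Timd4, where Cxcl13, a B-cell chemokine, led (0.721).

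Genes of macrophages in general also fell on the NASH diet. Of 12 macrophage genes shared by resident and recruited cells, 12 fell and 0 rose in FAAH S268D libraries relative to WT libraries. Of all genes tested, 9.18% passed in this comparison, 6.29% as lower and 2.89% as higher, beside this list and the lists that follow. The median log2 fold change of the 12 genes was -0.88, against 0.00043 over all genes. Cd68, a lysosomal marker, fell by 1.05 ± 0.21, Lyz2, lysozyme, by 1.03 ± 0.22, Fcer1g, an Fc receptor chain, by 0.88 ± 0.18 and Mpeg1, a pore-forming protein of macrophages, by 0.67 ± 0.13. Their summed level ran from 356 to 749 CPM, with a median of 563, in FAAH S268D NASH and from 525 to 1373 CPM, with a median of 1024, in WT NASH. Lipid-associated macrophage genes had 7 of 10 lower (median -1.35), led by Mmp12, a macrophage elastase (-2.47 ± 0.57), Lpl, lipoprotein lipase (-1.29 ± 0.31), Itgax, an integrin (-1.68 ± 0.42), and Lgals3, a lectin (-1.41 ± 0.36). Their summed level ran from 93.8 to 651 CPM in FAAH S268D NASH and from 182 to 957 CPM in WT NASH. FAAH S268D NASH replicates 2, 3 and 4 stood apart, at 93.8, 109 and 103 CPM against 325 to 651 CPM in the other 5, and the same 3 had the highest hepatocyte sums of the group, at 89324, 90334 and 106310 CPM. They were also its lowest for the monocyte list, with mean log2 levels relative to all libraries of -1.36, -0.86 and -1.34 against -0.05 to 0.58, and their part in the falls was not tested. Of 12 monocyte and recruited macrophage genes, 4 fell (median -0.93): Itgam (-1.095 ± 0.286), S100a4 (-1.28 ± 0.34), Cd14 (-1.01 ± 0.27) and Plac8 (-0.57 ± 0.18). Fn1, which hepatocytes also make, was 98.3% of the summed level of that list, which ran from 1297 to 2267 CPM in FAAH S268D NASH and from 1583 to 2159 CPM in WT NASH. None of the genes of these lists was at 0 in every library, and their part in the fall of the C1q set was not tested.

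Of 24 other genes that Kupffer cells are known for, 9 fell and 0 rose in FAAH S268D libraries on NASH (median -0.44). For this list and the niche list below, the background was 9.18% of all genes tested in either direction and 6.29% as lower. Vcam1, an adhesion molecule, fell by 0.93 ± 0.20, Slc11a1, a metal transporter of phagosomes, by 0.80 ± 0.18, Il18bp by 0.70 ± 0.16 and Dmpk, a kinase gene, by 0.66 ± 0.16. Their summed level ran from 721 to 1002 CPM in FAAH S268D NASH and from 817 to 1199 CPM in WT NASH. Of 12 genes of niche signals that maintain Kupffer cells, 4 fell: Csf1 (-0.45 ± 0.10) and Il34 (-0.56 ± 0.15), the ligands of the macrophage growth factor receptor, and Tgfb1 (-0.55 ± 0.13) and Acvrl1 (-0.57 ± 0.16), a ligand and a receptor of the TGF-beta family. The niche list summed to between 137 and 205 CPM in FAAH S268D NASH and between 161 and 230 CPM in WT NASH. On NASH-AA 0 of the 24 Kupffer cell genes, 0 of the 12 macrophage genes, 0 of the 12 monocyte genes, 0 of the 10 lipid-associated genes and 0 of the 12 niche genes passed for genotype in limma-voom. The share of all genes tested that passed there was 0.658%. An unadjusted p under 0.05 was found there for 9, 11, 7, 4 and 2 genes of these lists in that order. It was found there for 2317 of all 14903 genes. The smallest p among the Kupffer cell genes there was that of Hmox1, haem oxygenase (-0.62 ± 0.16, adjusted p = 0.06).

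The same lists between diets in WT libraries had 5 of 24 other Kupffer cell genes lower on NASH-AA, against 4.41% of all genes that passed in either direction, with Cd38 (-0.71 ± 0.16), Cd207 (-1.50 ± 0.40), Id1 (-0.94 ± 0.26) and Dmpk (-0.53 ± 0.15) leading. Aif1 (-0.58 ± 0.16) was the 1 of 12 shared macrophage genes that passed, Itgam (-0.97 ± 0.27) and Cd14 (-0.91 ± 0.26) the 2 of 12 monocyte genes and Cd9 (-0.63 ± 0.19) the 1 of 10 lipid-associated genes. At that share 1 of 12 or 1 of 10 is near the background. Tgfb1 (-0.51 ± 0.13) and Acvrl1 (-0.60 ± 0.15) of the niche list were lower and Bmp10 (0.48 ± 0.13), a ligand of Acvrl1, was higher. In FAAH S268D libraries 0 genes of these lists passed between diets in limma-voom, against 0.0939% of all genes. In that test 10 had an unadjusted p under 0.05, against 12.4% of all genes. They were 4 of 24 other Kupffer cell, 1 of 12 shared macrophage, 2 of 12 monocyte, 3 of 10 lipid-associated and 0 of 12 niche genes. Id3 (-0.71 ± 0.17, adjusted p = 0.0805) came closest to passing.

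Cells other than macrophages that carry some of these markers were looked at beside them. Platelets carry Clec1b, and of 6 platelet genes 3 were abundant enough to test. For genotype on NASH 0 passed and 2 had an unadjusted p under 0.05 in limma-voom, against 25.7% of all genes. Their log2 fold changes were -0.85 ± 0.30 for Pf4, -0.90 ± 0.33 for Ppbp and -0.25 ± 0.13 for Itga2b (adjusted p = 0.0649, 0.0794 and 0.219). The platelet list summed to between 2.81 and 4.46 CPM in FAAH S268D NASH and between 3.25 and 6.48 CPM in WT NASH. Clec9a, the dendritic cell lectin gene whose exons overlap those of Clec1b, fell by 0.72 ± 0.13 on NASH (adjusted p = 0.001) at a mean of 2.59 CPM, and its reads and those of Clec1b in the shared bases cannot be told apart. Peritoneal macrophages carry Timd4, and of 5 of their genes 3 were tested, and 0 passed on NASH and 0 had an unadjusted p under 0.05 in limma-voom (Gata6 0.09 ± 0.16). Alox15 and Serpinb2 were too scarce to test, with highest levels in WT NASH of 0.449 and 0.232 CPM. What this list tells of peritoneal macrophages is therefore limited. Prg4 made up 89.8% of that list's summed level, which ran from 82.3 to 135 CPM in FAAH S268D NASH and from 68.8 to 109 CPM in WT NASH. Sinusoidal endothelial genes had 0 of 8 past the threshold and 0 with an unadjusted p under 0.05 (limma-voom, median -0.01), with sums of 329 to 436 CPM in FAAH S268D NASH and 299 to 446 CPM in WT NASH. Hepatocyte genes had 2 of 7 higher, Ttr (0.35 ± 0.10) and Serpina1c (0.75 ± 0.22), with sums of 61120 to 106300 CPM in FAAH S268D NASH and 53370 to 79290 CPM in WT NASH. For genotype on NASH, 2.89% of all genes tested passed as higher and 6.29% as lower. The part of these cells in the marker values was not tested.

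C1q is the recognition part of a larger complex, and the genes of its partners were read beside it. Of 12 genes of classical complement partners and C1q binding proteins, 0 passed in any of the 4 comparisons of groups in limma-voom. An unadjusted p under 0.05 in that test was found for 2 for genotype on NASH, against 25.7% of all genes. For genotype on NASH-AA it was found for 1, beside 2317 of all 14903 genes. For diet it was found for 6 in WT libraries, beside 3636 of all genes, and for 6 in FAAH S268D libraries, against 12.4%. The share in this list was thus below that of all genes for genotype on both diets. For diet it was above that of all genes in both genotypes. The 12 genes had a median log2 fold change of 0.08 for genotype on NASH and 0.17 for diet in WT libraries. C1s1, a protease of the complex, had 0.12 ± 0.05 for genotype on NASH, C3 had -0.29 ± 0.14 and Cd93, a surface protein of endothelial and myeloid cells, -0.63 ± 0.22 (adjusted p = 0.143, 0.207 and 0.0658). C3 made up 55.8% of the list's summed level of 8875 to 13930 CPM in FAAH S268D NASH and 9875 to 18100 CPM in WT NASH.

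Because the C1q cluster lies on the chromosome of Faah, its neighbours were read as well. Within 1 Mb of the cluster 27 other genes were tested, of which 5 passed for genotype on NASH, 3 higher and 2 lower, or 18.5%. The share was 16.1% on chromosome 4 as a whole and 8.74% on the other chromosomes. On NASH-AA the shares were 11.1%, 5.06% and 0.366%, with 2 neighbours higher and 1 lower. Tcea3, a transcription elongation factor gene, had 40.9, 49.5 and 68.0 CPM (lowest, median, highest) in FAAH S268D NASH and 63.4, 76.5 and 88.9 CPM in WT NASH, and fell by 0.58 ± 0.10. Zfp46, a zinc finger gene, fell by 0.32 ± 0.09. Htr1d, a serotonin receptor gene, had 275 counts over the 8 FAAH S268D libraries on NASH and 0 over the 8 WT libraries on NASH, and 326 against 2 counts on NASH-AA. The median of the 27 neighbours was -0.04 on NASH and 0.02 on NASH-AA, against -0.74 to -0.77 and -0.58 to -0.60 for the C1q chains. Cd5l on chromosome 3 and Clec1b on chromosome 6 also fell on NASH, by 0.79 and 0.72 on the log2 scale. The substitution and sequence linked to it on chromosome 4 cannot be told apart by this design, and the part of either in the C1q values was not tested.

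**Figure D5:**
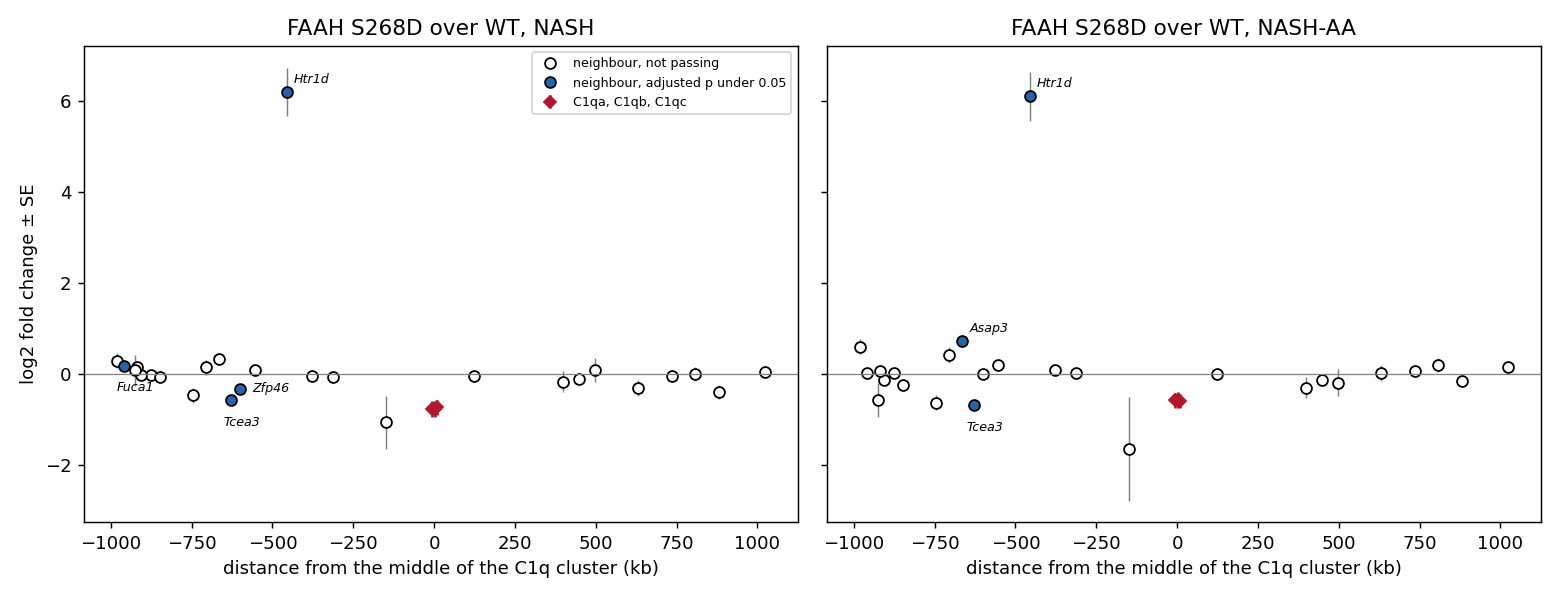
Log2 fold change ± SE of FAAH S268D over WT for genes within 1 Mb of the C1q cluster, against distance from its middle in kb, on NASH (left) and NASH-AA (right), with filled circles for adjusted p under 0.05 and diamonds for the C1q chains (1 neighbour is not plotted). Most neighbours lie near 0 while the chains lie together below it, and the fitted value of Htr1d depends on the prior count because WT libraries on NASH held 0 counts.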

How the data were processed

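Per the labels' protocols, TRIzol was used to extract RNA from whole liver, and polyA libraries were prepared with a Tecan kit. Trim Galore 0.6.7, UMI-tools 1.1.2, STAR 2.7.10 and the build GRCm38 are named in the submitters' processing notes. How reads were counted, and whether by strand, is not given in the sources used here. Estimated counts for each gene are in 1 table that the authors deposited, without scaling between libraries, of which 52450 of 1775584 cells were no longer plain numbers (3782 elapsed times, 1896 day fractions and 46772 with several grouping marks). A further 4450 were read as clock times, and 155716 with 1 mark before 3 digits as decimals. All were turned back by fixed rules and the values rounded to whole numbers. 3700 cells (0.208%) had 2 possible originals, of which the one nearer the depth-scaled median of that gene was used. A total of 0 columns belonged to other samples.

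Because of the altered cells the unit was recorded as other than counts, and the test was limma-voom (limma 3.58.1, R 4.3.3) with TMM factors from own code (trimming 30% by log ratio and 5% by mean level) and a prior count of 0.5. The filter required 15 counts in total and, in 8 libraries or more, a CPM equal to 10 counts at the median depth. One mean per group was fitted over 32 libraries, and p-values were adjusted by Benjamini-Hochberg over all genes tested, with 0.05 as the threshold. The fit was tested on simulated data. Intervals are 95% intervals of the fit. Depth per library was 3851626 to 34370179 counts, and precision is lowest for scarce genes in the shallowest one. No library pair of a group agreed within sampling noise.

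The markers and the gene lists were chosen with earlier results of these data known. Named are all 10 markers, up to 4 genes of each list with the smallest unadjusted p in a comparison, the genes most correlated with each marker, and the 4 neighbours of the C1q cluster with the smallest p for genotype on NASH, of which 1 is not reported here. Clec9a was added for its overlap with Clec1b, and Alb, Fn1 and Prg4 as the largest genes of their lists. Hepatocyte marker Tf was not matched by symbol. Positions and exon lengths come from a GENCODE annotation of GRCm38. Alternatives were another normalization, no filter, blocks for replicate number and for library number, each range of library numbers alone, sample quality weights, leaving out each library, 2 groups alone and the other reading of ambiguous cells.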

Additional observations from a re-analysis of the deposited data

Results flagged for a closer look

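In 40 sets of 8 libraries (10 markers in 4 groups) 3 values stood far from the rest of their group in untransformed CPM. Chance gives about 1 in 20 only for values without skew, and Timd4 and Marco were skewed in these groups. The gaps were not checked on log2 CPM, so the flags cannot decide whether these libraries are outliers. Timd4 was at 19.3 CPM in FAAH S268D NASH replicate 2, with the next library at 8.17 CPM and the lowest at 1.72 CPM. Marco was at 76.7 CPM in the same library, with the next at 21.3 CPM and the lowest at 1.09 CPM. Marco was at 67.1 CPM in WT NASH replicate 3, with the next at 30.4 CPM and the lowest at 0.266 CPM.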

How the results depend on the processing

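Of 440 marker values under 1 changed setting, 402 kept their direction and side of the threshold, 10 no longer passed, 13 newly passed and 15 changed sign. In library numbers 1 to 16 alone and with the other normalization, the missing filter, the library number covariate, sample quality weights, the replicate block or the other reading of ambiguous cells, the same 5 markers passed for genotype on NASH. The count was 0 among library numbers 17 to 32 alone and 0 in the fit of 2 groups alone. For genotype on NASH-AA it was 3 with sample quality weights and 3 with 2 groups alone, and for diet in WT 6 with sample quality weights and 1 among library numbers 17 to 32. Leaving out 1 library gave 5 to 6 markers for genotype on NASH (6 without WT NASH replicate 4), 0 to 3 for genotype on NASH-AA and 0 to 5 for diet in WT (3 and 5 without WT NASH replicate 5).

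Counts of all genes past the threshold moved further. For diet in WT (657) they were 182 without the filter, 17 with the replicate block, 370 with the library number covariate, 0 and 164 in library numbers 1 to 16 and 17 to 32, 3759 with sample quality weights, 1090 with 2 groups alone and 26 (without WT NASH replicate 2) to 2191 (without WT NASH replicate 5) on leaving out 1 library. For diet in FAAH S268D (14) they were 6, 8, 0, 372, 1062 and 4 without the filter, with the replicate block, in the 2 ranges, with weights and with 2 groups alone, and 6 (without FAAH S268D NASH-AA replicate 1) to 362 (without FAAH S268D NASH replicate 3). For genotype on NASH (1368) they were 883 and 20 in the 2 ranges, 73 with 2 groups alone and 492 (without FAAH S268D NASH replicate 4) to 2646 (without WT NASH replicate 5). For genotype on NASH-AA (98) they were 63 with the replicate block, 19 and 41 in the 2 ranges, 756 with weights, 614 with 2 groups alone and 66 (without FAAH S268D NASH-AA replicate 2) to 188 (without WT NASH replicate 5). The interaction had 0 genes in each setting fitted for it, which did not include 2 groups alone. The cause was not tested.

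Log2 fold changes that changed sign were all in comparisons for which that marker did not pass. With the replicate block they were Timd4 for diet in WT (-0.00613) and, for diet in FAAH S268D, Marco (-0.51) and Clec1b (0.0185). With the library number covariate they were Clec4f for diet in WT (0.0115) and Clec1b for diet in FAAH S268D (0.0114), and with weights Clec1b (0.0153) and Timd4 (0.30) for diet in FAAH S268D. Among numbers 1 to 16 they were Vsig4 for diet in WT (0.0235), Clec1b (0.0882), Cd5l (0.10) and Cd163 (-0.49) for diet in FAAH S268D, and Timd4 for genotype on NASH (0.30). Among numbers 17 to 32 they were Clec4f for diet in WT (0.0299), Timd4 for diet in FAAH S268D (0.58) and Timd4 for the interaction (0.30). Leaving out 1 library turned the sign in these ranges: for diet in FAAH S268D, Cd163 -0.31 to 0.43, Clec1b -0.0501 to 0.0571, Timd4 -0.28 to 0.25 and Vsig4 -0.0291 to 0.124. For diet in WT they were Clec4f -0.129 to 0.0653 and Timd4 -0.17 to 0.38, for genotype on NASH Timd4 -0.42 to 0.13, and for the interaction Marco -0.99 to 0.12 and Timd4 -0.47 to 0.0809.

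Replicate numbers are shared between groups, and of 48 pairs of same-numbered libraries 13 had correlated deviations over 0.1 (range -0.383 to 0.332). Pairs with different numbers were not computed, so these values cannot decide whether the numbers pair the samples. With the replicate number as a block, 961 genes passed for genotype on NASH, and the same 5 markers.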

Other observations

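Receptors for debris and dying cells other than Timd4, Marco and Cd163 were read on the NASH diet. Of 11 tested, 4 fell in FAAH S268D libraries relative to WT libraries: Msr1 (-0.92 ± 0.20), a class A scavenger receptor like Marco, and Axl (-0.76 ± 0.18) and Mertk (-0.39 ± 0.10), receptors that bind dying cells through bridging proteins, and Pros1, such a bridging protein (-0.26 ± 0.07). The share of all genes tested that passed as lower in that comparison was 6.29%. In WT libraries Msr1 (-0.66 ± 0.19) and Stab1 (-0.42 ± 0.13) were lower on NASH-AA than on NASH. The list summed to 587 to 889 CPM in FAAH S268D NASH and 760 to 1020 CPM in WT NASH.

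T cell genes had 3 of 4 lower in FAAH S268D libraries on NASH, against 6.29% of all genes tested that passed as lower. They were Cd8a (-2.15 ± 0.53), Trac (-1.01 ± 0.28) and Cd3e (-0.94 ± 0.28). The list summed to 0.874 to 5.25 CPM in FAAH S268D NASH and 1.98 to 7.68 CPM in WT NASH. B cell genes had 0 of 4, cholangiocyte genes 0 of 4 and erythroid genes 0 of 3 past the threshold there in limma-voom. An unadjusted p under 0.05 in that test was found for 0, 0 and 1 of them, against 25.7% of all genes. Prg4 was higher in WT libraries on NASH-AA than on NASH (0.60 ± 0.13), as were Ttr (0.45 ± 0.10) and Serpina1c (0.79 ± 0.22).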
